A study of Mus musculus with 2 samples.

Results

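The cells described here were proliferating macrophages of a mouse mammary tumour. A cell was taken as a cycling macrophage when its UMIs (unique molecular identifiers, 1 per captured transcript) of Birc5, Top2a and Ube2c summed to 3 or more, when C1qa, C1qb and C1qc together made up 0.2% or more of its UMIs, and when it held no UMI of Cd3e or Ncr1, which mark T cells and natural killer (NK) cells. By this rule 538 of 6198 cells were cycling macrophages, 270 of 2922 untreated and 268 of 3276 NAM cells. The comparison population was the non-cycling macrophages, the 3620 cells that passed the same C1q, Cd3e and Ncr1 criteria but had a sum of 2 or less. That name follows the rule and does not mean that each such cell was out of cycle.

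Female Balb/c mice of 6 to 15 weeks, the range given for the whole study, carried subcutaneous tumours of TSA cells, a transplanted mammary carcinoma line of that strain (the labels name no genetic change). The NAM group received 0.5% nicotinamide, a form of vitamin B3 and a precursor of NAD, in the drinking water for 10 days, and the other group was left untreated. CD45+ leukocytes were enriched with magnetic beads from a pool of 3 tumours per group, each pool giving 1 library, so the design held no biological replicate and no test between the groups was possible. Every interval below is an exact 95% interval that covers counting error only, and NAM cannot be told apart from any other difference between the libraries, be it in the mice, the dissociation or the capture.

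Macrophages in tumours are replenished by blood monocytes and by division of cells already in the tissue. Birc5 (survivin, of the chromosomal passenger complex), Top2a (topoisomerase that untangles sister chromatids) and Ube2c (the ubiquitin-conjugating enzyme of the anaphase-promoting complex) are made mainly from late S phase to mitosis. This runs through the MuvB complex with B-MYB and FOXM1, which acts through cell cycle homology elements in promoters. CCAAT boxes are a separate element, counted below as well. Genes of replication are driven by E2F factors earlier in the cycle.

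To show the sequences from which the selecting genes are transcribed, the 250 bases upstream of the RefSeq start (GRCm38.p6) are given below for these genes and for Cdk1, the mitotic kinase, 5′ to 3′ on the strand of the gene. Capitals mark the CCAAT box on either strand, where its reverse complement was searched as well. They also mark TTTGAA on either strand, the commoner form of the cell cycle homology element. The other form of that element marked in capitals is TTCGAA, which reads the same on both strands. Top2a lies at chr11:99024190-99024439 on the minus strand, Ube2c at chr2:164769679-164769928 on the plus strand, Cdk1 at chr10:69352913-69353162 on the minus strand and Birc5 at chr11:117848987-117849236 on the plus strand.
Top2a: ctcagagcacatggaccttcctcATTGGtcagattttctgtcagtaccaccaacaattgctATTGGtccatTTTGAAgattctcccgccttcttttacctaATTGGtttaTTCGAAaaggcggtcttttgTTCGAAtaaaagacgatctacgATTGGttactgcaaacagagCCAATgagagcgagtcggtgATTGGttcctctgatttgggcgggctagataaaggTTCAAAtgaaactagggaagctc
Ube2c: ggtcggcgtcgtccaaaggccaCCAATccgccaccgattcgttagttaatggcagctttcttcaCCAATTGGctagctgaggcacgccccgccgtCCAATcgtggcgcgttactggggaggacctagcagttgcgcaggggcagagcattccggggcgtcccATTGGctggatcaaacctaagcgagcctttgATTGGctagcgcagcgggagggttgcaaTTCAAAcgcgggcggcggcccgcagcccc
Cdk1: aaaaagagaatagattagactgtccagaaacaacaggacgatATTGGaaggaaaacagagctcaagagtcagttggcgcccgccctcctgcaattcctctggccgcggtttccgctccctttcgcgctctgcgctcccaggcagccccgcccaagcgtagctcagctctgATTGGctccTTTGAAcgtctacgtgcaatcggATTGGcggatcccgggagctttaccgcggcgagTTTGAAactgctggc
Birc5: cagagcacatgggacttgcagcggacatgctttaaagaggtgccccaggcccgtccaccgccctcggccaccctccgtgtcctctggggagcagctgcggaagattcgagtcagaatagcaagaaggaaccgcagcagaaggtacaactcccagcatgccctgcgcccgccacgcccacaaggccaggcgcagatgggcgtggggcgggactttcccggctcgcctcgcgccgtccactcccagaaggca
The Top2a window held 6 CCAAT, 2 TTTGAA and 2 TTCGAA, the Ube2c window 6 CCAAT, of which 1 pair overlaps, and 1 TTTGAA, and the Cdk1 window 3 CCAAT and 2 TTTGAA. None of these letters stood in the Birc5 window. Over windows that reach 50 bases past the start, CCAAT stood in 74.5% of the 51 windows of 46 genes (the G2/M list with the selecting genes), in 67.6% of the 34 windows of the S phase list and in 37.4% of all 32851 windows. TTTGAA or TTCGAA stood in 74.5%, 17.6% and 19.2% of the same windows, and TTTGGCGC or TTTCCCGC, which are E2F-type elements, in 3.92%, 29.4% and 1.56%, each counted on both strands. In the 6156 windows of genes with 100 or more UMIs in the cycling cells the shares were 38.0%, 14.6% and 3.31% for the 3 kinds of element. Such matches describe letters, not bound sites.

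The selecting genes themselves, given as a description, stood at 557 and 584 CPM (UMIs of the gene per 1000000 UMIs summed over the cells) for Birc5 in the untreated and NAM cycling cells against 11.1 and 10.7 in the non-cycling ones. For Top2a the values were 278 and 254 against 9.09 and 7.40 CPM, and for Ube2c 425 and 464 against 7.46 and 8.52 CPM. Further markers, which the rule did not count, are given as a description. Values are the share of cells holding a UMI and, in brackets, the share after each cell was thinned to 3000 UMIs. Csf1r, the receptor for macrophage colony-stimulating factor, was seen in 97.4% (74.1%) of untreated and 95.1% (63.1%) of NAM cycling macrophages, and Adgre1 (F4/80) in 87.8% (49.6%) and 78.7% (43.7%). In lymphocytes, which should lack Adgre1, the share was 6.20% (4.01%) and 3.54% (1.93%), and that of Csf1r was 14.2% (9.85%) and 13.5% (9.32%). Median depths were 4825 and 4505 UMIs there against 14131 and 14245.5 in the cycling macrophages. Cdk1 was seen in 74.8% (44.8%) and 71.3% (41.0%), Ccna2 (cyclin A2) in 65.9% (33.3%) and 70.5% (30.6%), and Mki67 (Ki-67) in 72.2% (35.9%) and 66.8% (27.2%). Cdk1 and Ccna2 had been named as markers together with the rule, so their detection is no independent check. Mki67 too is a gene of dividing cells, which the rule had selected. Cdk1 and Mki67 had no UMI in any of the 17 and 14 dendritic cells selected on Ccr7 and Fscn1, and Ccna2 was seen in 1 of the 14 NAM cells of that kind. Non-cycling macrophages held Cdk1 in 11.5% (3.68%) and 11.9% (4.24%) and Mki67 in 9.18% (3.51%) and 6.02% (2.36%). Lymphocytes, some of them cycling, held Cdk1 in 12.8% (8.39%) and 13.2% (8.68%) and Mki67 in 13.5% (7.66%) and 9.32% (4.50%). The cells carried transcripts of macrophages and of dividing cells alike. The C1q threshold by itself was also reached by cells with Cd3e, which the rule left out. These were 48 of 242 untreated (19.8%) and 73 of 344 NAM cells with Cd3e (21.2%).

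Transcripts from marker lists of other cell types were present to different extents. 2 or more UMIs over 11 T cell genes were held by 5.19% of untreated and 5.22% of NAM cycling macrophages, against 92.1% and 85.7% of cycling lymphocytes, and 1 untreated cell held 33 such UMIs. For 12 NK and cytotoxic genes the shares were 18.1% and 23.5%, against 11.3% and 16.7% in the shallower non-cycling macrophages. For 9 neutrophil genes they were 9.63% and 11.2%, with 81 UMIs in 1 untreated cell. Epithelial genes reached 2.22% and 1.49%, fibroblast genes 2.59% and 6.34%, and erythroid genes 1.85% and 9.70%, so the last of these differed most between the libraries. Among lists of dendritic cells, 2 or more UMIs were held by 85.6% of untreated and 86.2% of NAM cycling macrophages for the plasmacytoid list, by 60.4% and 61.9% for the conventional type 1 list, by 14.1% and 14.2% for the Cd209a list and by 4.44% and 2.99% for the mature list. Most UMIs of the first and second of these lists came from genes that other cells also make: Bst2 gave 1462 of the 1769 plasmacytoid UMIs untreated and 1500 of 1753 in NAM, and Naaa 579 of 767 and 659 of 864 of the type 1 UMIs. The defining markers were near 0, with 2 and 0 UMIs of Siglech, 5 and 8 of Xcr1, 2 and 5 of Clec9a and 2 and 3 of Cd209a over all members. List medians that moved, and single genes that reversed, when cells with T cell, NK, epithelial or fibroblast transcripts were left out are given in the section on processing. The part of the other lists was not tested. Of the cells that passed both thresholds, 14 untreated and 10 NAM cells had been left out for Cd3e or Ncr1, and 11 cell barcodes occurred in both libraries, of which 2 belonged to a cycling macrophage in either library.

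The share of macrophages that met the rule was of similar size in both libraries. It is not the whole share in cycle, because the selecting genes are made mainly from late S phase to mitosis. Of the non-cycling class, 113 untreated and 137 NAM cells reached the median S phase share of the cycling cells, given below. Of the 1980 untreated C1q cells 13.6% (12.2 to 15.2) were cycling, and 12.3% (10.95 to 13.8) of the 2178 NAM cells, a log2 ratio of −0.15 (−0.40 to 0.10) that included 0. Among lymphocytes 13.9% and 11.3% reached the same sum of 3 UMIs, and among the remaining cells below the C1q threshold 10.9% and 10.4%. After thinning to 3000 UMIs, 7.47% of untreated and 6.89% of NAM macrophages still had a sum of 3 or more, beside 9.12% and 8.04% of lymphocytes and 6.74% and 5.56% of the remaining cells. Macrophages made up 69.6% and 69.4% of all cells with a sum of 3 or more, close to their 67.8% and 66.5% of all cells.

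Cycling macrophages held more RNA than the non-cycling ones. Their median was 14131 UMIs and 3334 genes per cell against 9265 UMIs and 2459.5 genes without NAM, and 14245.5 UMIs and 3325 genes against 9362 UMIs and 2444 genes with NAM. The ratio of median UMIs was 1.53 and 1.52. Since the rule counts UMIs, depth enters the selection: 32.5% of untreated and 30.3% of NAM cells in the deepest 25% of macrophages were cycling, against 5.86% and 4.77% in the shallowest 25%. The share of mitochondrial UMIs was close in cycling and non-cycling cells, with medians of 2.495% against 2.60% untreated and 2.77% against 2.78% in NAM.

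Other cell cycle genes were mostly, though not at each step, higher in cells with a larger sum of the 3 selecting UMIs. Just inside the threshold, at a sum of 3, lay 36 untreated and 32 NAM cells, in which Mki67 stood at 53.0 and 22.6 CPM. Just outside it, at a sum of 2, lay 71 and 74 cells with 29.7 and 18.6 CPM, and at a sum of 0 the values were 9.87 and 6.27 CPM. Among the 30 and 36 cells with 40 or more UMIs, Mki67 reached 249 and 173 CPM, the latter beside 176 CPM at 12 to 39 UMIs, and the summed G2/M list 12462 and 10586 CPM. The S phase list ran differently. It was highest, at 2690 CPM, at 12 to 39 UMIs in the untreated library, and at 2587 CPM, at 5 to 11 UMIs, in the NAM library, and was 1211 and 1066 CPM at 40 or more. Mcm5, a subunit of the replicative helicase, stood at 45.3 and 19.9 CPM in those cells, under its 105 and 111 CPM at 5 to 11 UMIs. On the C1q side, 8 untreated and 10 NAM members lay just inside the threshold, at 0.2% to 0.3%, and 9 and 13 dividing cells just outside it, at 0.1% to 0.2%. In the members just inside, Apoe stood at 1317 and 2050 CPM, against 10097 and 7710 CPM in members above 0.3%. Adgre1 stood at 120 and 78.8 CPM against 286 and 199 CPM.

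**Figure D1:**
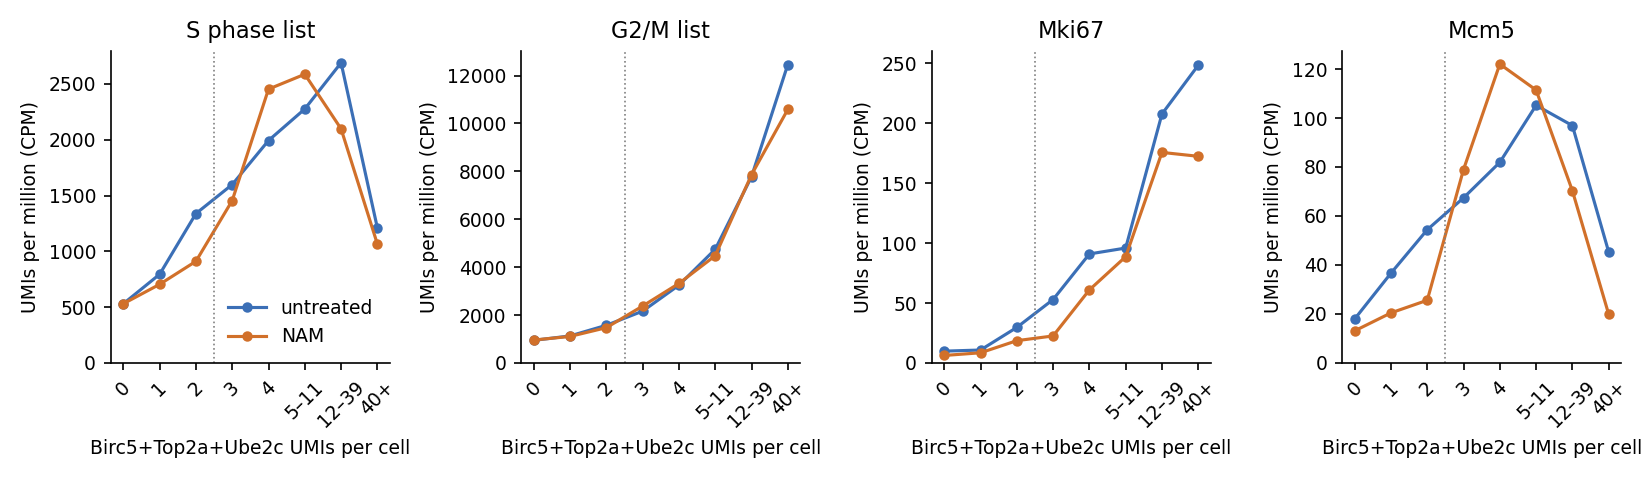
CPM of the summed S phase list, the summed G2/M list, Mki67 and Mcm5 (vertical axes, linear, from 0) in C1q cells grouped by their sum of Birc5, Top2a and Ube2c UMIs (horizontal axis), blue for the untreated and orange for the NAM library; the dotted line is the threshold of 3. G2/M transcripts were highest in the cells with 40 or more UMIs, while S phase transcripts and Mcm5 were lower there than in the cells with 5 to 39.

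Within the cycling macrophages S phase and G2/M transcripts did not go together. Spearman's correlation over cells between the share of UMIs on the 43 S phase genes and the share on the G2/M genes without the selecting ones was 0.03 untreated and −0.06 with NAM, given as a description over 270 and 268 cells that share a library and differ in depth. Split at both medians, the 4 groups held 68, 67, 67 and 68 untreated cells and 66, 68, 68 and 66 NAM cells. The median S phase share was 0.153% and 0.134% of a cell's UMIs, and the median G2/M share 0.627% and 0.651%. Among non-cycling macrophages 113 untreated cells (6.61%) and 137 NAM cells (7.17%) reached the members' median S phase share, whereas 8 (0.468%) and 6 (0.314%) reached the members' lower quartile of the G2/M share. Because the selecting genes are themselves made from late S phase to mitosis, the rule took cells with G2/M transcripts out of the non-cycling class, and this difference follows from the selection.

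**Figure D2:**
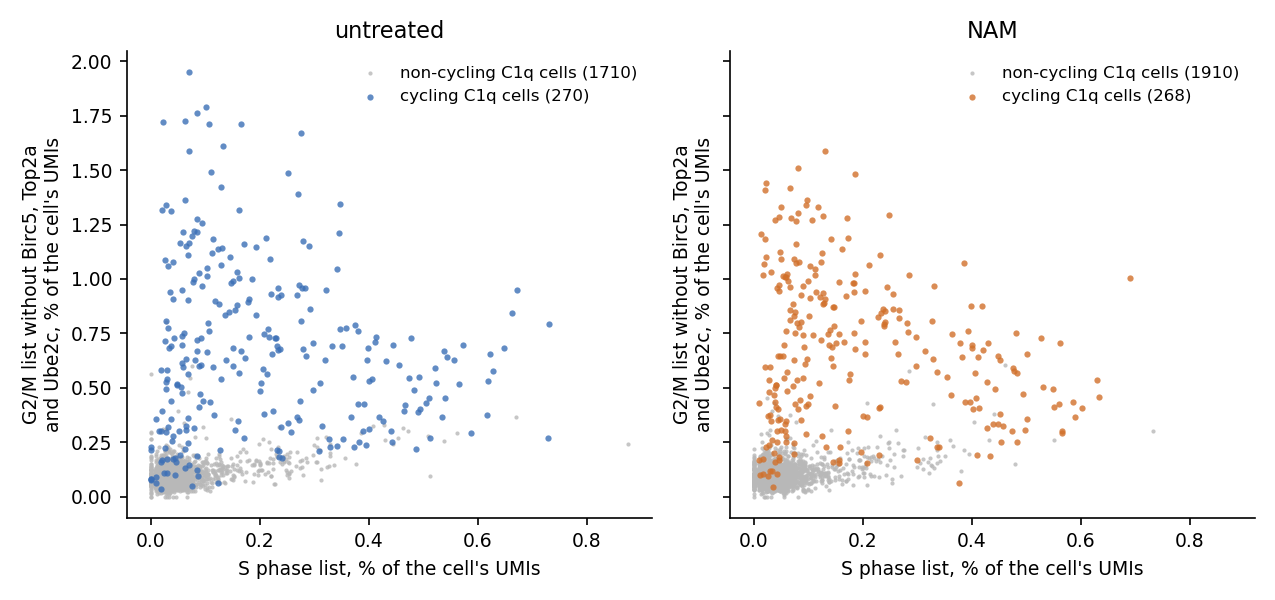
Each point is a C1q cell, placed by the percent of its UMIs on the S phase list (horizontal) and on the G2/M list without Birc5, Top2a and Ube2c (vertical), with cycling cells in colour and non-cycling cells in grey, untreated left and NAM right. The coloured cells spread over both axes with no diagonal, and grey cells with a high S phase share lie along the bottom.

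Between cycling and non-cycling macrophages, genes were described and not tested, because the cells had been selected on this contrast. Of 9754 genes with 100 or more UMIs, 999 (10.2%) were 1.5-fold or more higher in the cycling cells of both libraries and 350 (3.59%) were lower. Without the highest cell per gene the counts were 895 higher and 466 lower, and without the 5 highest 668 and 996, but this takes a larger part of the smaller, cycling class and so lowers its values more by construction. The median over all these genes was 0.09 untreated and 0.11 in NAM on the log2 scale, and the lists below are to be read beside those values.

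The machinery of mitosis stood highest above the non-cycling cells. All 12 mitotic kinases and passenger proteins passed 1.5-fold in both libraries, with a median log2 ratio of 4.67 untreated and 4.77 in NAM, as did all 20 spindle genes (4.80 and 4.79) and all 16 kinetochore genes (4.20 and 4.25). Plk1, the kinase of mitotic entry, was at 61.0 against 0.728 CPM untreated and 58.2 against 1.29 CPM in NAM. Cdc20, the activator of the anaphase-promoting complex, was at 135 against 3.40 CPM and 148 against 5.09 CPM. Of 9 genes of that complex and its checkpoint 8 passed, and Espl1 (separase) did not, at 10.8 against 11.2 CPM untreated and 13.8 against 10.5 CPM in NAM.

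Cyclins and their kinases were higher by stage. Cdk1 was at 240 against 14.6 CPM untreated and 232 against 14.8 CPM in NAM, which is 16.5-fold and 15.6-fold. The log2 ratios of Ccna2 were 5.69 and 5.48, and those of Ccnb1 (cyclin B1) 4.72 and 5.32. Ccne1 (cyclin E1), which acts at the entry into S phase, had log2 ratios of 2.80 and 2.82. The D-type cyclins, which carry growth factor signals, differed little: Ccnd1 had log2 ratios of 0.25 and 0.26, Ccnd3 0.47 and 0.23, and Ccnd2 was lower at −0.41 and −0.28. In all 9 of 13 members of the list passed 1.5-fold.

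Genes of DNA replication passed in smaller steps. All 23 licensing and fork genes were past 1.5-fold in both libraries with medians of 1.74 and 1.76 on the log2 scale, among them Pcna, the sliding clamp, at 185 against 67.9 CPM untreated and 150 against 60.2 CPM in NAM. Of 12 nucleotide synthesis genes 10 passed. Rrm2, the regulated subunit of ribonucleotide reductase, had the largest ratio of that list, with log2 4.53 and 4.92.

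Inhibitors of the cycle were divided. The INK4-type inhibitors Cdkn2c (p18) and Cdkn2d (p19) were higher in cycling cells, with log2 ratios of 3.14 and 2.95 and of 2.64 and 2.52. Cdkn3, a phosphatase of Cdk1 and Cdk2, was higher by 4.48 and 5.11. Cdkn1a (p21) stood at 449 against 513 CPM untreated and 469 against 587 CPM in NAM, with log2 ratios of −0.19 and −0.33, and Btg2, an antiproliferative factor, was lower at −0.81 and −0.66. Over 13 members of the list 5 were past 1.5-fold higher and 1 was lower.

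With the selecting genes left out, the highest genes by the weaker of both libraries were Esco2, Nusap1, Hist1h2ap, Pbk, Mxd3, Cdc25c, Prc1, Depdc1a, Ccna2 and Plk1. Esco2, the acetyltransferase that fixes cohesion of sister chromatids, was at 29.1 against 0.364 CPM untreated and 30.7 against 0.429 CPM in NAM, log2 6.21 and 6.08. The highest genes outside the cell cycle lists were Esco2, Mxd3, Depdc1a, Sapcd2, Neil3, Aspm, Ankle1, Casc5, Troap and Cep55, most of them known from mitosis as well, with Neil3, a DNA glycosylase, at log2 5.24 and 5.64. Lepr, the leptin receptor (chr4:101717404-101815352, plus strand, GRCm38), also stood higher in cycling cells, at 207 against 43.7 CPM untreated and 17.7 against 3.91 CPM in NAM, log2 2.25 and 2.18. The 5 highest cells held 479 of 805 UMIs untreated and 55 of 69 in NAM, and without the 5 highest cells of each class Lepr was at 85.8 against 22.9 CPM untreated and 3.66 against 2.15 CPM in NAM, the former of the NAM values resting on 14 UMIs. Leaving out 5 cells also takes more from the smaller, cycling class. A UMI of it was held by 62 of 270 untreated members (thinned 11.9%, against 3.86% of non-cycling cells) and by 16 of 268 NAM members (2.61% against 0.942%).

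**Figure D3:**
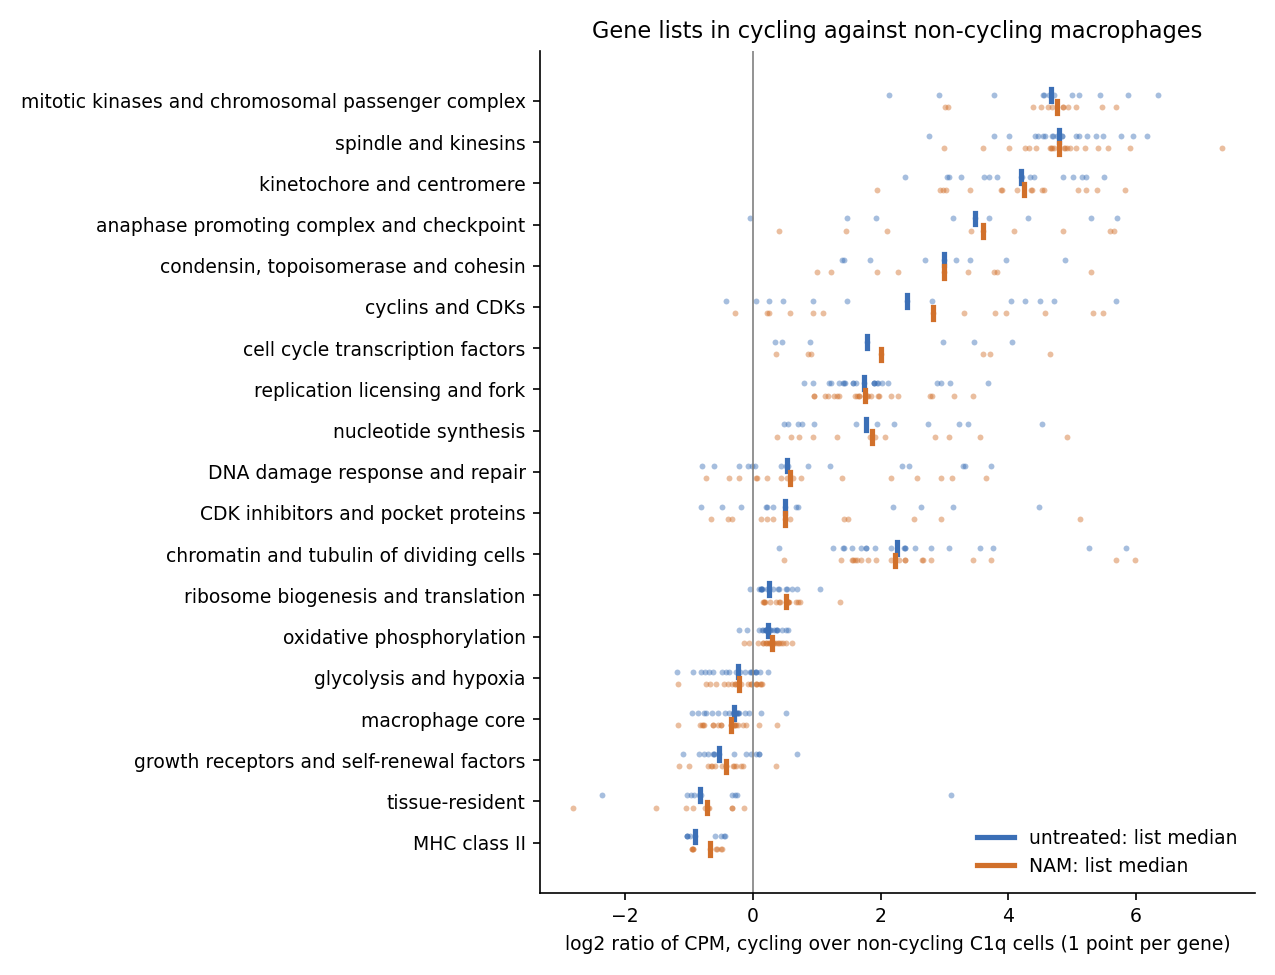
Each point is a gene with 100 or more UMIs, placed by its log2 ratio of CPM in cycling over non-cycling macrophages, blue untreated and orange NAM, with a bar at each list's median. The mitotic kinase, spindle and kinetochore lists centre near 4 to 5. The anaphase-promoting complex list centres at 3.48 and 3.60, and the condensin list at 2.99 and 3.00. Replication and nucleotide synthesis centre near 2, and the macrophage core, growth receptor, tissue-resident and MHC class II lists left of 0.

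Macrophage genes made up a smaller share of the transcripts of cycling cells. None of 21 core macrophage genes was 1.5-fold higher and 5 were lower, with medians of −0.29 and −0.34 on the log2 scale. Apoe, the lipid carrier, had log2 ratios of −0.86 and −1.17, Cd14 −0.76 and −0.78, and Csf1r −0.29 in both. Cx3cr1, the fractalkine receptor, was higher in both libraries, at 250 against 175 CPM untreated and 214 against 165 CPM in NAM. Counted per cell instead, the summed core genes gave 536 UMIs untreated and 503 in NAM in cycling cells against 539 and 551 in non-cycling ones. The lower share thus coincided with a larger total per cell.

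Genes of MHC class II, which present antigen to CD4+ T cells, were lower on both scales. H2-Aa (chr17:34282744-34287823, minus strand, GRCm38) was at 3500 against 7153 CPM untreated and 4747 against 9167 CPM in NAM, log2 −1.03 and −0.95. The list median was −0.90 and −0.68, with 4 of 9 members past 1.5-fold lower and none higher, and the summed list gave 292 and 401 UMIs per cycling cell against 391 and 509 per non-cycling cell. MHC class I genes did not share this, with medians of 0.15 and 0.03 and none of 17 past 1.5-fold in either direction.

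Some other macrophage genes also made up a smaller share of the transcripts. Mmp12, a metalloelastase, was at log2 −1.49 and −1.93. The tissue-resident list had 6 of 10 lower and medians of −0.82 and −0.72, but per cell its sum was 10.4 and 5.62 UMIs in cycling against 8.47 and 5.32 in non-cycling cells, and 8.76 and 5.31 against 8.36 and 5.28 without the highest cell of each class and library. Il10 (chr1:131019845-131024974, plus strand) was at 40.2 against 86.3 CPM untreated and 17.2 against 28.6 CPM in NAM. Genes of ribosome biogenesis and translation were slightly higher, with medians of 0.25 and 0.52 and 3 of 17 past 1.5-fold, of which Nop58, a ribosomal RNA methylation factor, had log2 1.05 and 1.37. Oxidative phosphorylation had medians of 0.24 and 0.30 and none of 22 past 1.5-fold.

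Of 20 growth receptors and self-renewal regulators 15 had 100 or more UMIs, of which none was 1.5-fold higher in the cycling cells of both libraries and 3 were lower. Counted per cell, the summed list gave 24.6 UMIs untreated and 24.9 in NAM in cycling cells against 21.8 and 21.1 in non-cycling ones. Maf, a brake on macrophage self-renewal, had log2 ratios of 0.10 and −0.31. Myc stood at 33.0 against 35.5 CPM untreated and 38.4 against 30.1 CPM in NAM, so its ratio had opposite signs in the libraries. By the rule the genes lowest in cycling cells were Hal, Areg, Tmem150a, Dqx1, Ppbp, Phf1, Ccl22, Sult1a1, Snn and Pla2g2d, 7 of them with under 10 UMIs in the cycling cells of either library. Hal (histidine ammonia-lyase) was at 5.41 against 39.4 CPM and 6.92 against 36.0 CPM.

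Between NAM and untreated cycling macrophages few genes differed by 1.5-fold. Of 6232 genes with 100 or more UMIs over both libraries, 62 (0.995%) were 1.5-fold or more higher in NAM and 210 (3.37%) lower, and the median of all was 0.00 on the log2 scale. After thinning to 3000 UMIs the counts were 46 and 54. There the selection and the 100-UMI filter were applied again, leaving 152 untreated and 153 NAM cycling cells. Fewer genes were thus compared, and the thinned counts cannot be set against the first. These counts describe a pair of libraries, not the conditions. For each list below, genes with 20 or more UMIs were taken, and a ratio whose counting interval lay above or below 0 was counted. Over all 9720 such genes 8.44% had intervals above 0 and 9.37% below it, and in the non-cycling cells, over 11590 genes, 12.3% and 18.1%; a gene with more UMIs has a narrower interval, so lists of abundant genes pass more often.

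Cyclins differed little between the libraries. None of 13 cyclins and kinases passed 1.5-fold and the median was −0.00. Cdk1 had a log2 ratio of −0.05 (−0.18 to 0.09) and Ccna2 of −0.04 (−0.22 to 0.14), while Ccnb1 was slightly higher at 0.22 (0.04 to 0.39). Among genes of replication and of the spindle, the ratios past counting error lay below 0. Of 24 replication genes 6 had intervals below 0 and none above it, and 18 included 0, with a median of −0.24, beside −0.17 in non-cycling macrophages and −0.01 over all genes with 20 or more UMIs. Pcna was at 185 and 150 CPM, log2 −0.31 (−0.47 to −0.15), and Mcm3 at 78.8 and 61.0 CPM, log2 −0.37 (−0.62 to −0.12). None of the 21 with 100 or more UMIs passed 1.5-fold. Of 43 S phase genes 9 had intervals below 0 and none above, with 1 of the 36 with 100 or more UMIs past 1.5-fold lower, and of 20 spindle genes 5 lay below and none above. Other cycle lists were divided. Of 51 G2/M genes 5 lay above and 3 below, of 16 kinetochore genes 2 above and 1 below. Of 20 chromatin and tubulin genes 5 lay above and 5 below. Over all genes 8.44% lay above and 9.37% below. Hist1h2ap, a replication-dependent histone, was at 113 and 69.7 CPM, log2 −0.70 (−0.92 to −0.48). Mki67 was at 160 CPM untreated and 135 CPM in NAM.

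Genes of antigen presentation were higher in NAM by count. Of 8 MHC class II genes 7 had intervals above 0, beside 8.44% of all genes. Their median log2 ratio was 0.45 in cycling and 0.40 in non-cycling macrophages. H2-Aa had a ratio of 0.44 (0.41 to 0.47) and H2-DMb1, which loads peptides, stood at 443 and 693 CPM, 0.65 (0.56 to 0.73). Ciita, their transcriptional activator, was at 6.95 and 6.66 CPM, a difference that was not detectable at this depth. Of 17 MHC class I genes 13 had intervals above 0 and none below, with a median of 0.21, beside 0.32 in non-cycling cells. Without the deepest 10% of macrophages the class II median in cycling cells was 0.78 and the class I median 0.41. The study named several of these MHC genes from these same libraries, so their direction is no independent evidence.

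Of 17 interferon gamma response genes 9 had intervals above 0 and none below it, beside 8.44% and 9.37% of all genes. Their median was 0.31, against 0.47 in non-cycling macrophages. The median was 0.15 (−0.40 to 0.84) after thinning and 0.54 without cells with T cell or NK transcripts. Socs1, the feedback inhibitor of the pathway, was at 41.2 and 68.4 CPM, log2 0.73 (0.44 to 1.02). Irf1 had a ratio of 0.46 (0.24 to 0.69), against 0.89 in non-cycling cells, but −0.0095 after thinning, and Cxcl10 0.02 (−0.08 to 0.11), against 0.46. Of 21 type I interferon response genes 3 had intervals above 0 and 7 below, with a median of −0.14, and in non-cycling cells 9 lay above and 3 below, with a median of 0.06. Their summed level in cycling cells was 3883 CPM untreated and 4223 CPM in NAM, against the sign of the median. Cmpk2 stood at 37.9 and 14.1 CPM, log2 −1.42 (−1.90 to −0.97), but in 34 untreated and 25 NAM cells only, and Ifit3 and Rsad2 were likewise held by 45 to 65 cells of a library. Without the deepest 10% of macrophages the type I median was 0.30 and the Ifit3 ratio 0.27, after thinning they were 0.21 and 0.26, and without cells with T cell or NK transcripts 0.25 and 0.24, so the sign of this list changed with the cells taken.

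Genes of tissue-resident macrophages were lower in NAM. Of 9 members 8 had intervals below 0, beside 9.37% of all genes. The list median was −0.64, and −0.94 in non-cycling cells. Cbr2, a carbonyl reductase, was at 82.9 and 31.3 CPM, log2 −1.40 (−1.72 to −1.10), Folr2 (folate receptor beta) at 214 and 137 CPM, and Mrc1 (the mannose receptor) at 309 and 194 CPM. Maf, a transcription factor of that phenotype, was at 161 CPM in 198 of 270 untreated cells and at 75.6 CPM in 138 of 268 NAM cells, log2 −1.09 (−1.30 to −0.89), against −0.68 in non-cycling cells. The thinned shares of cells with a UMI of Maf were 33.7% and 17.2%, against 20.1% and 10.6% in lymphocytes. Il10, the anti-inflammatory cytokine, gave 156 UMIs in 70 untreated cells and 67 UMIs in 34 NAM cells, log2 −1.22 (−1.66 to −0.80), beside −1.59 in non-cycling cells.

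Of 16 heat shock genes 7 had intervals below 0, 1 above it and 8 included it, with Hspa1a at 785 and 331 CPM and Hspb1, a small heat shock protein, at 12.1 and 4.10 CPM. The median of that list was −0.09 against −0.31 in non-cycling cells, where 15 intervals lay below 0. Of 20 glycolysis and hypoxia genes 13 had intervals above 0 and 2 below, beside 8.44% and 9.37% of all genes, with a median of 0.26. Bnip3, a mitophagy receptor induced by hypoxia, was at 90.6 and 148 CPM, and Slc2a1 (the glucose transporter GLUT1) at 35.0 and 53.8 CPM, though its log2 ratio was −0.078 after thinning. Of 17 immediate early genes 10 had intervals above 0 and 3 below, but the median of that list, 0.28, became −0.08 after thinning.

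**Figure D4:**
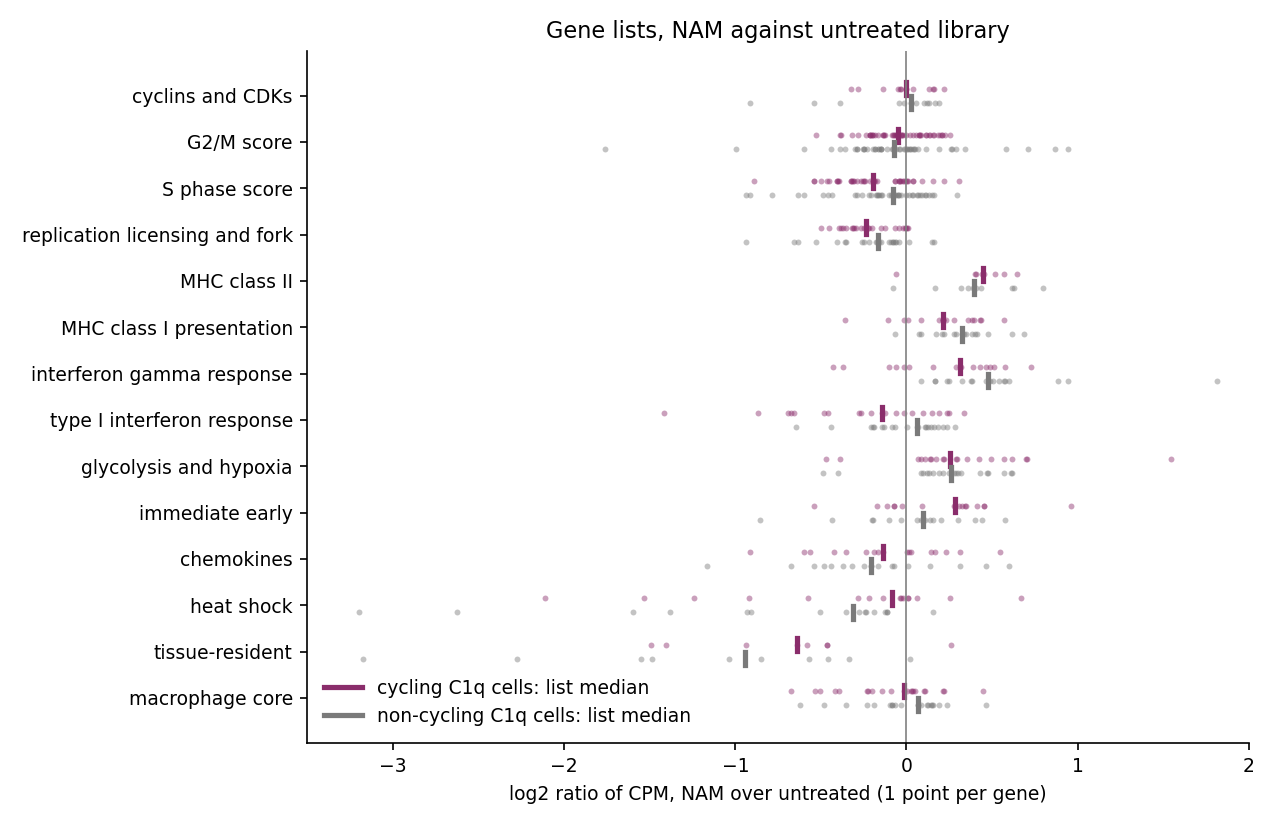
Each point is a gene with 20 or more UMIs, placed by its log2 ratio of CPM, NAM over untreated, purple in cycling and grey in non-cycling macrophages, with a bar at each list's median; Retnla, at −8.20 in cycling cells, lies outside the axis. The medians of the MHC lists lie right of 0 and that of the tissue-resident list left of 0 in both classes, and that of the cyclins near 0.

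The genes highest in NAM cycling macrophages by ratio were Ly6c1, Ly6c2, Hbb-bs, Gpr141, Ctsk, Ifitm1, Xlr, Atp1b3, Pabpn1 and Egr1. The UMIs of several lay in few cells. Ctsk (cathepsin K) had 88 UMIs in 72 untreated cells and 208 in 71 NAM cells, of which 119 lay in 1 cell, and its log2 ratio of 1.23 became 0.15 without the highest cell of each library. Ly6c2, a monocyte antigen, had 56 and 171 UMIs, and its ratio of 1.59 became 0.59 without the 5 highest cells of each. Ly6c1 likewise went from 2.29 to 0.96. Hbb-bs, a haemoglobin chain, was spread over 28 and 68 cells with at most 3 UMIs each, beside erythroid transcripts at 21.1 and 484 CPM in the non-cycling cells, or 20.6 and 271 CPM without the highest cell of each library, which in NAM held 3989 of 9032 UMIs. Atp1b3, a subunit of the sodium pump, was broadly higher, at 240 CPM in 224 untreated cells and 476 CPM in 238 NAM cells, log2 0.99 (0.88 to 1.11), beside 0.89 in non-cycling cells. Egr1, an immediate early factor, was at 75.7 and 148 CPM, log2 0.96 (0.76 to 1.17), beside 0.40 in non-cycling cells.

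The lowest were Retnla, Lepr, Cxcl3, Gm13075, Hspa1b, Snhg9, Fhl3, Dennd5b, Gm10126 and Upf1. Retnla (resistin-like alpha), with 438 UMIs untreated and 1 in NAM, log2 −8.20 (−14.09 to −6.30), was the extreme of concentration, because 435 of the UMIs came from 1 untreated cell. Lepr had 805 UMIs in 62 untreated cells, 479 of them in the 5 highest, and 69 UMIs in 16 NAM cells, log2 −3.54 (−3.93 to −3.20), and −4.50 without the 5 highest cells of each library. In non-cycling macrophages it was −3.47. Hspa1b, an inducible Hsp70, was at 114 and 26.4 CPM. Upf1, the helicase of nonsense-mediated decay, was at 44.6 CPM in 109 cells and 14.3 CPM in 44 cells, and Snhg9, a noncoding snoRNA host, at 31.4 CPM in 89 cells and 7.43 CPM in 27 cells. In the non-cycling cells their ratios were −1.30 and −1.70, of the same sign as in the dividing cells.

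**Figure D5:**
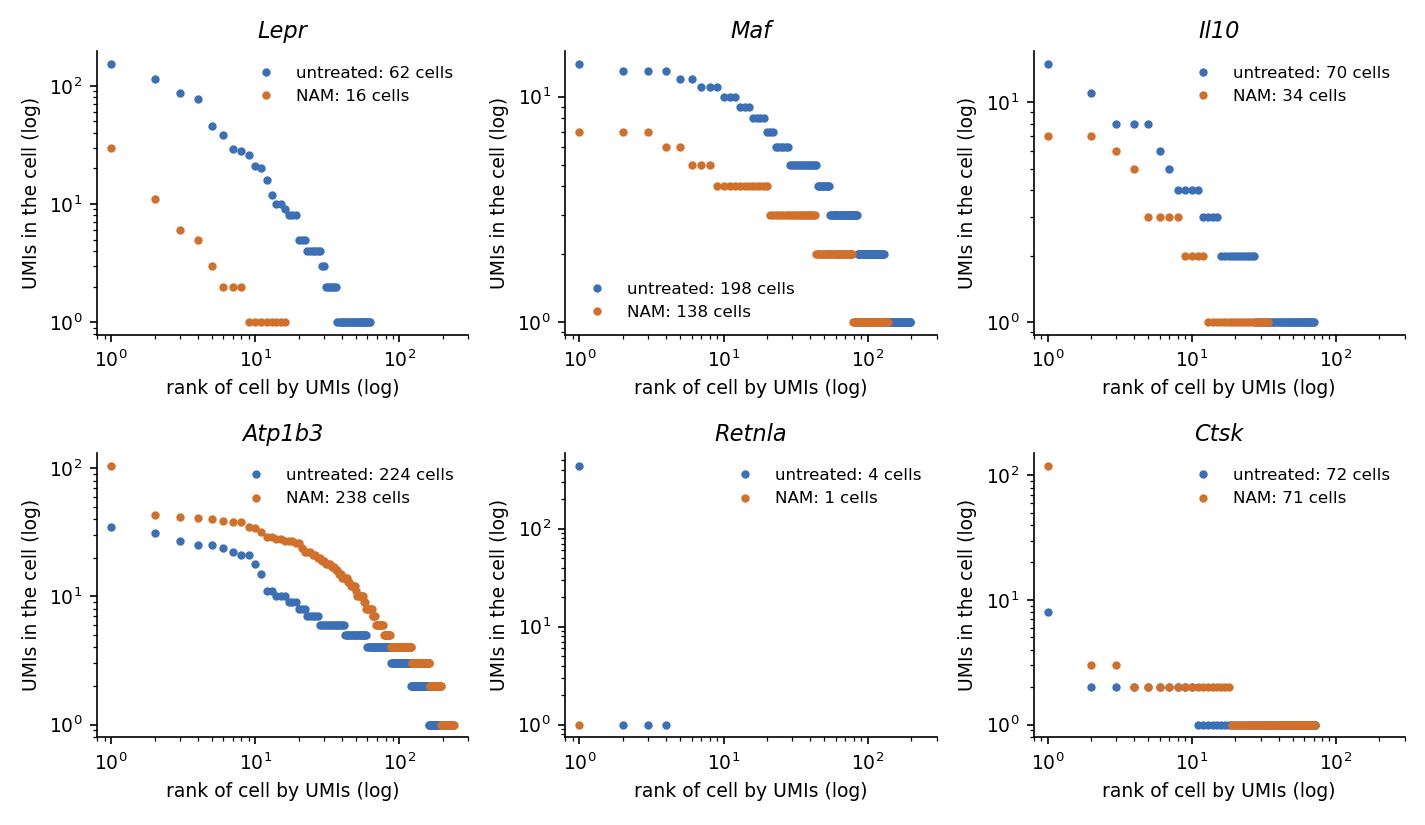
UMIs of Lepr, Maf, Il10, Atp1b3, Retnla and Ctsk in each cycling macrophage with at least 1 (vertical, log), ordered by rank (horizontal, log), blue untreated and orange NAM. For Lepr, Maf, Il10 and Atp1b3 the curves lie apart over most ranks, while for Retnla and Ctsk a single point stands apart, with 435 and 119 UMIs.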

How the data were processed

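CD45+ cells of TSA tumours, 3 mice pooled per group, were captured with the 10x Single Cell 3′ kit, version 2. The authors deposited a filtered matrix of UMI counts per library, made with Cell Ranger on mm10; the annotation version is not given in the sources used here. The deposited UMI counts were used without normalization, for 27998 genes and all deposited cells. The cycling macrophages and the 46 gene lists (632 symbols, 8 without a match) were chosen with earlier results of these data known. UMIs were summed over the cells of a class and library and given per 1000000 UMIs (CPM). Ratios carry exact conditional binomial intervals, CPM exact Poisson intervals and shares Clopper-Pearson intervals, all at 95%. Since each group was 1 library, nothing was tested between groups, and a gene was counted as different past 1.5-fold.

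Libraries held 29161823 (untreated) and 32090120 (NAM) UMIs, and the cycling macrophages 3883086 and 3903255. The named genes were the 10 with the highest and the 10 with the lowest ratio among those with 100 or more UMIs, without the genes of the selection rule. For cycling against non-cycling cells the weaker library ranked them. Doublets were not called or removed, so members may include some. Alternatives changed the selecting sum, the C1q threshold, depth, scaling, filter and the cells taken. Promoter sequences were taken from RefSeq (GRCm38.p6) and gene coordinates from GENCODE (GRCm38). Scripts ran in Python 3.11.15 with NumPy 2.4.6, SciPy 1.17.1 and matplotlib 3.10.9 and were tested on simulated data. Some genes are not reported here.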

Additional observations from a re-analysis of the deposited data

Results flagged for a closer look

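For 14 listed genes the counting intervals of the NAM over untreated log2 ratio lay on opposite sides of 0 in cycling and non-cycling macrophages; the difference was not tested, with 1 library per group. Over all 6154 genes compared this held for 33. The values in cycling and non-cycling cells were 1.23 and −0.44 for Ctsk, −0.73 and 0.66 for S100a8, −0.71 and 0.51 for S100a9, and 0.22 and −0.39 for Hmox1. Without the highest cell of each library these genes stood in cycling cells at 0.15 for Ctsk, 0.02 for S100a8, 0.50 for S100a9 and −0.07 for Hmox1, so 1 cell per library set the direction or size of each. Lpl, lipoprotein lipase, was at 0.45 and −0.92, and at 0.44 in cycling cells without its highest cell. Ifit1 was at −0.46 and 0.18 and Ifit3 at −0.48 and 0.13, and both were −0.34 without the highest cell. In cycling cells each kept its sign in 10 of 13 alternatives only, and reached 0.30 for Ifit1 and 0.27 for Ifit3 without the deepest 10%. The remaining values were −0.24 and 0.14 for Fn1, 0.13 and −0.24 for S100a4, 0.16 and −0.17 for Cenpa, 0.23 and −0.37 for Cxcl2, −0.27 and 0.14 for Cd9, 0.06 and −0.11 for Hspa8, and 0.17 and −0.08 for Ccl4. In cycling cells Fn1 kept its sign in 10 of 13 alternatives, reaching 0.19, and Cd9 in 12 of 13, reaching 0.38.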

How the results depend on the processing

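No paired analysis was possible because each group has 1 library, and for the same reason no replicate could be left out. The log2 ratio of the cycling share kept its sign in 8 of 8 alternatives, between −0.27 and −0.08. The ratio of median UMIs, cycling over non-cycling, became 1.22 untreated and 1.24 in NAM without the deepest 10% of cells. Genes 1.5-fold higher in NAM numbered 99 as the mean over cells and 369 with a lower count filter, genes lower in NAM 54 after thinning and 719 with that filter, and genes lower in cycling cells 996 without the 5 highest cells per gene and 526 with that filter. Thinning left fewer genes to compare, and the lower filter more. Of the list medians, MHC class II was 0.35 at a sum of 5 or more, 0.39 with the sum scaled to each cell's depth, 0.53 without cells with T cell or NK transcripts and 0.78 without the deepest 10%. MHC class I was 0.41 after thinning and 0.41 without the deepest 10%. Type I interferon was 0.21 after thinning, 0.25 without cells with T cell or NK transcripts and 0.30 without the deepest 10%. The tissue-resident list was −0.92 without the 5 highest cells, and chemokines were 0.050 after thinning and 0.073 without the deepest 10%. Immediate early genes were −0.077 after thinning, 0.091 without cells with T cell or NK transcripts and 0.022 without the deepest 10%. Single genes that reversed after thinning, without T cell or NK transcripts and without the deepest 10% were Ctsk (−0.22, −0.16, −0.14), Ifit1 (0.25, 0.25, 0.30) and Ifit3 (0.26, 0.24, 0.27). Rsad2 was 0.42 (thinned) and 0.25 (deepest 10%), Irf1 −0.0095 and Slc2a1 −0.078 (thinned). Hmox1 was −0.46 with the scaled sum, −0.37 thinned, −0.46 without the deepest 10%, −0.11 without epithelial or fibroblast transcripts, −0.17 as the mean over cells, −0.60 without the 5 highest cells and −0.069 without the highest. S100a8 was 0.049, 0.11 and 0.024 and S100a9 0.74, 0.55 and 0.50 without T cell or NK transcripts, the 5 highest cells and the highest cell. Fn1 was 0.093 at C1q of 0.5%, 0.056 without T cell or NK transcripts and 0.19 without the deepest 10%, and Cd9 0.38 without the deepest 10%. The causes were not tested. Leaving out the highest cell per gene, the 5 highest cells for Lepr in cycling against non-cycling cells, and the highest cell for erythroid and tissue-resident transcripts were chosen after seeing the data. Thinning gives no UMIs per cell, and Retnla had too few UMIs without its highest cell. Of the values on which comparisons rest 207 stayed within the counting interval of the reported value or, for counts of genes, within 1.5 times of it. For single genes 567 values stayed within it and 113 lay outside it without reversing a called direction. Depth limits genes such as Ciita, seen in under 10% of cells.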

Other observations

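For genes of NAD metabolism, the pathway that nicotinamide feeds, no difference between the libraries was detectable beyond the share over all genes at this depth. Of 18 genes with 20 or more UMIs 1 interval lay above 0 and 1 below it, with a median log2 ratio of 0.04, and none of the 10 with 100 or more UMIs passed 1.5-fold. Ribosome biogenesis and translation genes had a median of 0.13 with 8 of 17 intervals above 0 and none below, beside −0.03 and 4 above and 4 below of 18 in the non-cycling cells. Over all genes of that depth 8.44% lay above 0 and 9.37% below in cycling cells. Oxidative phosphorylation had a median of 0.06 with 7 of 22 above 0.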
